A study of Mus musculus with 18 samples.

Results

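The cadherins and protocadherins described here are the protein-coding genes whose GENCODE vM21 symbol starts with Cdh and a digit or with Pcdh, 92 of the 47643 genes in the count tables. Of these, 57 belonged to the clustered families Pcdha, Pcdhb and Pcdhg, with 14, 22 and 21 genes, and 35 lay elsewhere, 23 cadherins and 12 non-clustered protocadherins. RNA was sequenced from spot cultures of embryonic dorsal root ganglia (DRG), the ganglia that hold the cell bodies of sensory neurons, taken from CD-1 mouse embryos at e13.5 and grown to 7 days in vitro (DIV7) with nerve growth factor and the mitotic inhibitor 5-fluorodeoxyuridine (FDU). Control cultures were uninjured, and in the other cultures a blade was used to cut the axons 1, 3, 8, 16 or 24 h before RNA was taken (hours post injury, HPI), with 3 libraries in each of the 6 groups. No group carried a transgene or an allele, and nothing in the labels says whether the 3 libraries of a group were separate dissections, so the p-values measure the spread between these libraries, which may be technical. Uninjured cultures were sequenced at a single time, so hours since injury and hours in culture cannot be told apart.

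Cadherins are transmembrane proteins whose extracellular cadherin repeats bind calcium and join like molecules on neighbouring cells. Classical cadherins hold catenins at their cytoplasmic tail and through them the actin cytoskeleton, and in the nervous system they are known for axon fasciculation, target choice and synapse formation. Clustered protocadherins are made from tandem variable exons, each with its own promoter, spliced in Pcdha and Pcdhg to shared constant exons, and the combination that a neuron makes is known to serve recognition of its own branches. The C-type genes at the end of Pcdha and Pcdhg, such as Pcdhac2 and Pcdhgc4, differ from the others in that their promoters are not chosen at random.

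Depth ranged from 9478891 to 23082327 counts assigned to genes over the 18 libraries, and between 25.2% and 33.2% of the entries in each table were for reads assigned to no gene. The cultures carried sensory neuron transcripts: 8 marker genes, among them Tubb3 and Prph, summed to between 9205 and 9445 CPM in control libraries, where CPM are counts scaled to the size of the library. Markers of other cells were low in the control libraries, with sums of 5.25 to 23.5 CPM over 9 fibroblast genes and 4.88 to 7.38 CPM over 8 myeloid genes. The 11 genes listed for satellite glia and Schwann cells summed to between 185 and 255 CPM there, and most of that sum was Mbp and S100b, while the defining glial markers Sox10 and Fabp7 each stayed at or below 2.24 CPM at 16 and 24 HPI. At 24 HPI the fibroblast sum was 6.46 to 33.0 CPM and the myeloid sum 8.15 to 8.71 CPM, the latter above all control libraries, and their part in the members' values was not tested. Since this is bulk RNA, fewer cells of a type and less RNA per cell cannot be told apart in any of the values that follow.

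A level is given as CPM within a gene and, between genes, as RPKM, which is CPM per kilobase, over the exon bases that a gene shares with no other gene on its strand. The counts looked like those made without regard to strand, in which case this scale understates genes that overlap one on the other strand. Over bases unshared on both strands the level of Pcdhga11 in control was 3.94 in place of 1.87 RPKM and that of Pcdhgc3 3.19 in place of 1.72 RPKM, while the 6 highest genes stayed as they were. In control cultures the 92 genes ran from 0 to 53.0 RPKM with a median of 1.35 RPKM. Most clustered genes lay in a narrow band, with medians of 2.40 RPKM for Pcdha, 1.35 RPKM for Pcdhb and 1.72 RPKM for Pcdhg. The spread was wider outside the clusters, from 0.0131 to 32.6 RPKM around a median of 0.447 RPKM. In all, 77 of the 92 genes had over 3 counts in each of the 18 libraries and 5 had over 3 counts in none.

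The gene with the highest level was Pcdhac2, the last gene of the alpha cluster, at 53.0 ± 8.96 RPKM (SD, n = 3) in control cultures. It supplied between 64.9% and 71.0% of the counts of the alpha cluster in each of the 18 libraries. Pcdh1, a delta-1 protocadherin, followed at 32.6 ± 4.09 RPKM. Next came Cdh2, which encodes N-cadherin, the main classical cadherin of neurons, at 18.3 ± 1.32 RPKM, then Pcdh17, a delta-2 protocadherin, at 15.6 ± 5.96 RPKM. Cdh18 at 12.6 ± 1.88 RPKM and Cdh4, which encodes R-cadherin, at 12.2 ± 2.30 RPKM were the leading type II and second type I classical cadherins. The levels of Cdh2 and Pcdh17 differed by less than the SD of Pcdh17, and those of Pcdh17, Cdh18 and Cdh4 also by less than their spread, so the order among these genes is not resolved beyond Cdh2 lying above Cdh18 and Cdh4. The scale bears on the order, because Pcdhac2 stood at 27.3 RPKM, below Pcdh1, when all its exon bases were counted, including the constant exons that alpha genes share.

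**Figure D1:**
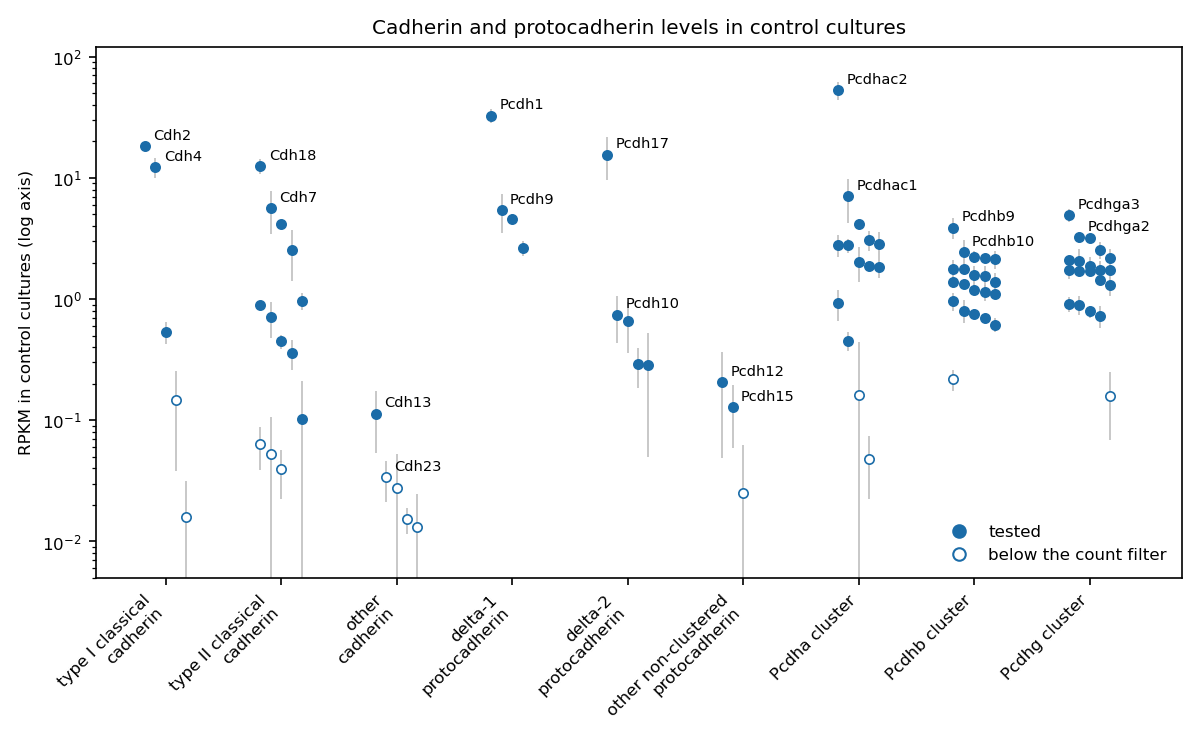
Level of each cadherin and protocadherin in control cultures, in RPKM on a log axis, by role. Points are means of 3 libraries and bars are SD; filled points were tested and open points fell below the count filter, and Pcdhb1 and Pcdhga10, listed at 0 in control, are not drawn. Pcdhac2 stands alone above the other clustered genes at 53.0 RPKM.

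Several cadherins of other tissues were at or near 0. Cdh1, which encodes the E-cadherin of epithelia, had between 0 and 3 counts in any library, and Cdh16 likewise between 0 and 3. Cdh5, the cadherin of endothelium, had at most 10 counts, and Cdh17 at most 4. Cdh19, a marker of Schwann cell precursors and glia, had between 0 and 44 counts and passed 1 CPM in 3 libraries, replicate 3 at 1 HPI, replicate 1 at 16 HPI and replicate 3 at 24 HPI. A low value could not be read as low expression for a pair of genes. Pcdhga10 was listed at 0 in all 18 libraries, but each of its exon bases is also covered by another gene when both strands are considered, and Pcdha4 keeps only 494 unshared bases of 5768.

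The counts of clustered genes came from their variable exons. On the GRCm38 build (mm10) the Pcdha genes spanned chr18:36930184-37187661, the Pcdhb genes chr18:37264938-37524479 and the Pcdhg genes chr18:37661793-37841873. Because genes of the alpha and the gamma cluster end in the same constant exons, reads there belong to no single gene, and the bases unshared on the strand made up 8.56% to 61.1% of a Pcdha gene and 33.2% to 68.5% of a Pcdhg gene, against 90.3% to 100% of a Pcdhb gene. These shares are higher than those over both strands, where Pcdhga10 keeps none. Neighbouring genes of a cluster are close in sequence, so counts can still be split between them.

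Of the 92 genes, 76 had over 1 CPM in at least 3 libraries, whichever groups those were, and were tested, 51 clustered and 25 not. Among these, 68 were over 1 CPM in all 18 libraries. Those below the filter were Cdh1, Cdh3, Cdh5, Cdh9, Cdh16, Cdh17, Cdh20, Cdh23, Cdh26, Pcdh20, Pcdhgc5, Pcdhga10, Pcdhb1, Pcdhb12, Pcdha4 and one of the identifiers that carry the symbol Pcdha11. Libraries of the same replicate number deviated together, and the number was kept as a term in the fit (the replicate term). Tests were made by quasi-likelihood in edgeR, with p-values adjusted by Benjamini-Hochberg over 13771 genes, and past the test means an adjusted p under 0.05.

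Cadherins and protocadherins past the test at a time point were lower than control. Most of these calls were at 16 and 24 HPI, and most were by less than 2-fold. At 16 HPI 16 of the 76 tested genes (21.1%) were past the test and all 16 were lower than control. Of all tested genes, 22.2% were past the test in either direction and 11.5% were past it and lower. At 24 HPI 22 were past the test, all lower, where 15% of all tested genes were past it and 9.03% were lower. No member was past the test in the upward direction at any time point. At an unadjusted p under 0.05, edgeR gave 1 higher member at 8 HPI, Cdh10, and 1 at 16 HPI, Pcdh18, and none at 1, 3 and 24 HPI, and DESeq2 gave 0 higher members past the adjusted threshold at each of the 5 time points. With offsets for GC content and length edgeR gave 1 higher member past it, at 8 HPI. The median log2 fold change of the tested members was −0.24 at 16 HPI and −0.30 at 24 HPI, beside medians of 0.00 over all tested genes. These counts rest on the replicate term: without it, 5 members were past the test at 16 HPI, Cdh2, Cdh4, Cdh8, Cdh18 and Pcdh7, and 0 at 24 HPI. Leaving out control replicate 2 gave 14 at 24 HPI.

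The summed level of the 8 sensory neuron markers was also lower late, between 7867 and 8656 CPM at 16 HPI and between 8471 and 8588 CPM at 24 HPI. Within that list Tubb3, Elavl4 and Scn9a were lower at 16 HPI, while at 24 HPI 2 were lower (Tubb3 and Scn9a) and 3 were higher (Isl1, Pou4f1 and Elavl4). The part of this shift in the members' values was not tested.

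Earlier, few members passed. At 1, 3 and 8 HPI 1, 2 and 4 members were past the test, all lower. Over all tested genes, 0.276%, 0.189% and 7.68% were past the test at these times, and 0.182%, 0.145% and 3.9% were past it and lower. At 1 HPI the member was Pcdh1. At 3 HPI they were Pcdh1 and Pcdhga2. At 8 HPI they were Cdh2, Pcdh1, Pcdhac2 and Pcdhga2. All of these early calls were lost without control replicate 2, and the counts at 1, 3 and 8 HPI were 0 without the replicate term.

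Over the whole time course, 22 members were past the F test across the 5 time points, beside 30% of all tested genes, so the share of members was no higher than the share of all genes. Of the 28 members past this test or the test at a single time point, 25 were past at a single time point, 12 outside the clusters and 13 within them. At both 16 and 24 HPI 13 members were past the test. The share of all tested genes past it at both times, or at any of the 5 time points, was not counted. Taken singly, 22.2% of all tested genes at 16 HPI and 15% at 24 HPI were past the test. Pcdh1 was the only member past it at all 5 time points.

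Cdh2 and Cdh4, the type I cadherins of neurons, both fell. Cdh2 stood at 154, 154 and 135 CPM in control replicates 1 to 3, at 126, 99.7 and 102 CPM at 16 HPI and at 129, 112 and 108 CPM at 24 HPI. The groups did not overlap at either time. The log2 fold change of Cdh2 against control reached −0.44 ± 0.06 (SE) at 16 HPI (adjusted p = 7.93e-06), between values of −0.21 ± 0.06 at 8 HPI and −0.34 ± 0.05 at 24 HPI. Cdh4 had 76.9, 80.5 and 107 CPM in control, 59.9, 65.6 and 59.4 CPM at 16 HPI and 54.1, 55.7 and 75.6 CPM at 24 HPI. For Cdh4 this gave −0.51 ± 0.09 on the log2 scale at 16 HPI (adjusted p = 0.000383) and −0.51 ± 0.09 at 24 HPI. Here too every injured library at 16 and 24 HPI lay below every control library. The third tested type I gene, Cdh15, known as M-cadherin of muscle, was low at 1.73 CPM in control and had log2 fold changes of −0.20 at 16 HPI and 0.20 at 24 HPI, neither past the test.

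Type II cadherins are a subfamily with an adhesive interface unlike that of type I. At 16 HPI Cdh7, Cdh8 and Cdh18 were past the test, 3 of 10 tested, and at 24 HPI Cdh6, Cdh7, Cdh11 and Cdh18 were, 4 of 10. Over all tested genes the shares were 22.2% at 16 HPI and 15% at 24 HPI, with 11.5% and 9.03% lower. Whether a group of so few genes differs from these shares was not tested. Cdh7 showed a wide spread between replicate numbers, with 79.6, 53.3 and 35.9 CPM in control, 43.5, 38.3 and 27.4 CPM at 16 HPI and 59.8, 36.9 and 31.8 CPM at 24 HPI. The groups overlapped, yet Cdh7 was lower in 3 of 3 replicate numbers at 16 HPI, by a log2 ratio of −0.59 ± 0.09 (adjusted p = 4.24e-05), and −0.38 ± 0.08 at 24 HPI. The 24 HPI call of Cdh7 was lost without control replicate 1. Cdh18 went from 47.6, 64.1 and 59.9 CPM in control to 38.5, 44.1 and 41.1 CPM at 16 HPI and 42.7, 44.5 and 48.6 CPM at 24 HPI. At 16 HPI the Cdh18 groups did not overlap and the log2 fold change was −0.47 ± 0.07 (adjusted p = 4.66e-05), and at 24 HPI it was −0.33 ± 0.07.

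Cdh8 had 31.1, 31.5 and 33.5 CPM in control and 24.8, 21.6 and 20.8 CPM at 16 HPI, a log2 fold change of −0.52 ± 0.10 with no overlap. At 24 HPI its libraries held 28.5, 25.3 and 25.8 CPM, and the log2 fold change of −0.28 was not past the test. Cdh11 and Cdh6 were past the test at 24 HPI and not at 16 HPI, and for Cdh6, Cdh8 and Cdh11 the direct comparison of 24 with 16 HPI was not past the test. Cdh11, known in mesenchyme and in neurons, had 7.28, 8.42 and 9.99 CPM in control and 3.68, 5.76 and 6.73 CPM at 24 HPI, a log2 fold change of −0.67 ± 0.15. The 24 HPI libraries of Cdh11 all lay below the control libraries. For Cdh6 the log2 fold change at 24 HPI was −0.56 ± 0.14, with 4.48, 4.14 and 3.48 CPM in control and 3.13, 2.62 and 2.43 CPM at 24 HPI, and the call was lost without control replicate 2 and with DESeq2.

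The type II gene Cdh10 had 2.495, 3.92 and 4.44 CPM in control, 4.48, 5.20 and 5.31 CPM at 8 HPI and 1.78, 3.09 and 2.43 CPM at 24 HPI. Neither the log2 fold change of 0.48 at 8 HPI nor that of −0.55 at 24 HPI was past the test against control. Between 16 and 24 HPI Cdh10 fell by 0.69 on the log2 scale (SE 0.19, adjusted p = 0.0242), the only member past the test in that comparison, where 9.82% of all tested genes were and 6.22% were lower. That call was lost without either of 16 HPI replicates 1 and 2, or without 24 HPI replicate 1 or 3. Cdh12, Cdh22 and Cdh24 were past no test, and Cdh24 had log2 fold changes between 0.02 and 0.17 at the 5 time points.

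**Figure D2:**
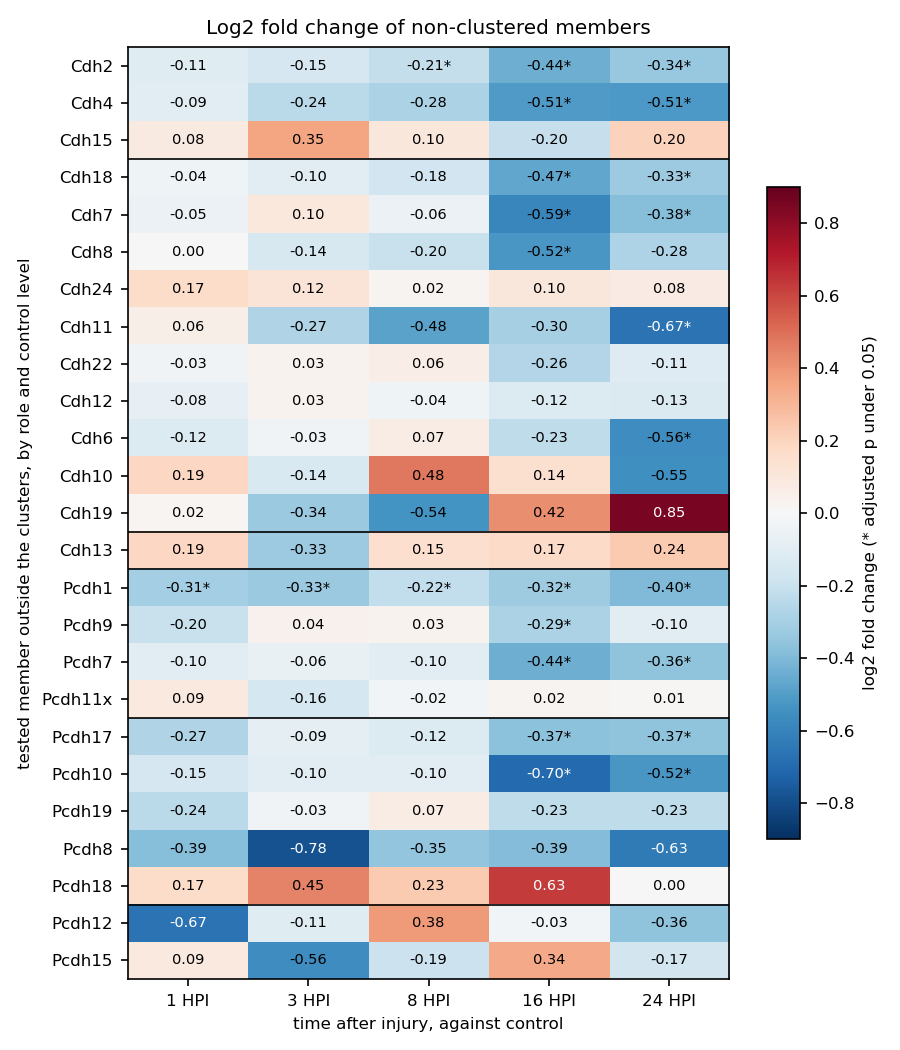
Log2 fold change of the 25 tested members outside the clusters at each of the 5 time points against control, with genes in rows grouped by role. An asterisk marks an adjusted p under 0.05; blue cells are lower and red cells higher than control, and every asterisk is on a blue cell. Calls gather in the 16 and 24 HPI columns, and Pcdh1 has an asterisk in all 5.

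Among the delta-1 protocadherins, which carry a longer extracellular part than the delta-2 group, 3 of 4 were past the test at 16 HPI and 2 of 4 at 24 HPI. The shares of all tested genes were 22.2% and 15%, with 11.5% and 9.03% lower, and a difference from them was not tested. Pcdh1, whose protein binds in adhesion complexes of epithelia and neurons, had 262, 270 and 328 CPM in control, 216, 209 and 272 CPM at 1 HPI and 198, 210 and 245 CPM at 24 HPI. At 24 HPI no library reached the lowest control library. The log2 fold changes of Pcdh1 were −0.31 ± 0.06, −0.33 ± 0.06, −0.22 ± 0.06, −0.32 ± 0.06 and −0.40 ± 0.06 at 1, 3, 8, 16 and 24 HPI. The 5 comparisons share the control libraries, and the calls at 1, 3 and 8 HPI were lost without control replicate 2 and without control replicate 3. Those at 16 and 24 HPI were kept whichever library was left out. Pcdh7 fell from 48.7, 53.9 and 44.1 CPM to 32.2, 40.9 and 34.8 CPM at 16 HPI, a log2 fold change of −0.44 ± 0.07 with no overlap (adjusted p = 5.39e-05), and to −0.36 ± 0.06 at 24 HPI. Pcdh9 was past the test at 16 HPI alone, at −0.29 ± 0.07, a call lost without control replicate 1, and its replicates stood far apart, with 51.8 CPM in control replicate 1 against 32.3 and 26.5 CPM in the others. Pcdh11x, the X-linked member of the group, had log2 fold changes of 0.02 at 16 HPI and 0.01 at 24 HPI.

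Of the 5 delta-2 protocadherins, Pcdh10 and Pcdh17 were past the test at both 16 and 24 HPI. Taken singly, these times had 22.2% and 15% of all tested genes past it, with 11.5% and 9.03% lower. Pcdh10, known from axon outgrowth in the forebrain, had 17.5, 8.27 and 9.75 CPM in control and 10.1, 6.58 and 5.03 CPM at 16 HPI, when its log2 fold change of −0.70 ± 0.12 was the largest drop among the tested members outside the clusters. At 24 HPI it was −0.52 ± 0.12. Pcdh17 had 292, 159 and 156 CPM in control, 204, 133 and 125 CPM at 16 HPI and 224, 113 and 134 CPM at 24 HPI. In both genes replicate 1 was the highest of its group in all 6 groups, the groups overlapped, and the drop was seen within 3 of 3 replicate numbers. The log2 fold change of Pcdh17 was −0.37 ± 0.06 at 16 HPI and −0.37 ± 0.06 at 24 HPI. Pcdh8, Pcdh18 and Pcdh19 were past no test, and Pcdh18 reached 0.63 at 16 HPI from a control level of 1.54 CPM. Among the remaining tested genes outside the clusters, Pcdh15, a protocadherin of hair cell tip links, was past the F test over time (adjusted p = 0.0204) and at no single time point, with log2 fold changes from −0.56 at 3 HPI to 0.34 at 16 HPI, and Cdh13 and Pcdh12 were past no test.

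**Figure D3:**
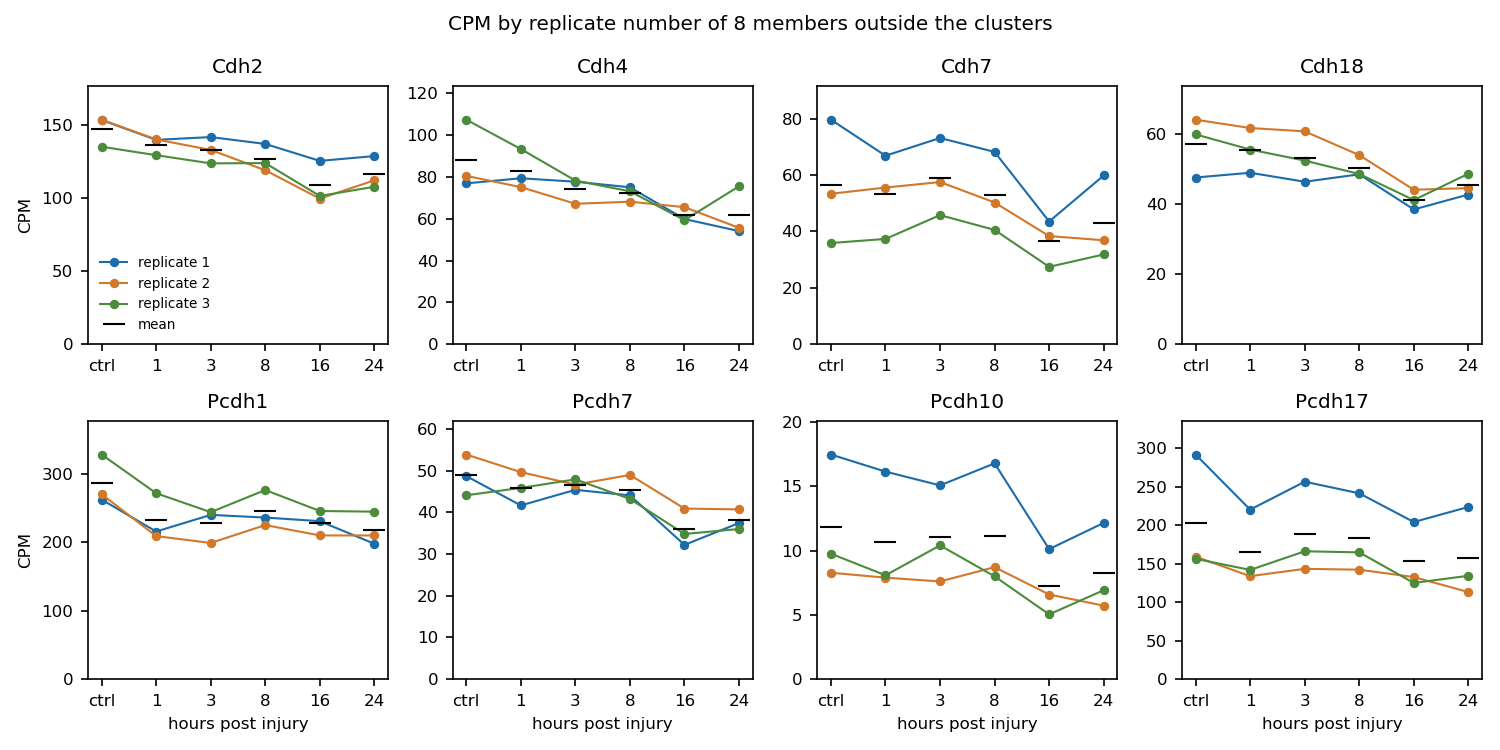
CPM of 8 members outside the clusters in every library, from control to 24 HPI, with linear axes that start at 0. Lines join libraries of the same replicate number and black bars are group means of 3; replicate 1 of Pcdh10 and Pcdh17 lies above the other replicates throughout, and the values at 16 HPI lie below the control of the same replicate number in every panel.

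The step from 8 to 16 HPI was tested directly. In this comparison 9 members were past the test, all lower at 16 HPI, beside 15.2% of all tested genes, with 7.86% lower. Outside the clusters these were Cdh2, Cdh7, Cdh8, Cdh18, Pcdh7, Pcdh9, Pcdh10 and Pcdh17, 8 of 25 tested, and inside them Pcdhb22. Pcdh10 at −0.60 ± 0.13 and Cdh7 at −0.53 ± 0.09 on the log2 scale showed the largest steps. Without the replicate term 0 members were past the test in this comparison, and with offsets for GC content and length 14 were.

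The promoters of 5 members outside the clusters that were past the test at both 16 and 24 HPI are shown here because those genes were lower together at these times. The description holds for 3 more genes: Cdh4 is not in the promoter table, and Cdh2 and Pcdh1, on the same chromosome as the clusters, were not searched. They run from 250 bases before to 50 after the RefSeq start on GRCm38.p6, and capitals mark the E-box letters CAGGTG, one of 3 motifs searched on both strands. For Cdh7 the table holds 3 starts, and the one farthest upstream is printed.
Cdh7 (chr1:109982650-109982949, plus strand): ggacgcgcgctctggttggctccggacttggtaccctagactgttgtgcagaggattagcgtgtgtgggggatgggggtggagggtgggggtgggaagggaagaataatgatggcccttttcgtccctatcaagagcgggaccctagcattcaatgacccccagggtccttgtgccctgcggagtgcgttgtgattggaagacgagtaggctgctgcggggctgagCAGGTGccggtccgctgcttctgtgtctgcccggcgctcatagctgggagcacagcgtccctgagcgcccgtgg
Cdh18 (chr15:23036213-23036512, plus strand): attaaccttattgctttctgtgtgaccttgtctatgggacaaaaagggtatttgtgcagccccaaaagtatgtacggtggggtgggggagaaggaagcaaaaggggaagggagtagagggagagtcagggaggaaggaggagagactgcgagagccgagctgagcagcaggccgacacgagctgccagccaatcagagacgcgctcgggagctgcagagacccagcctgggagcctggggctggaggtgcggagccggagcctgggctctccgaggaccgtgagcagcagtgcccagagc
Pcdh7 (chr5:57717831-57718130, plus strand): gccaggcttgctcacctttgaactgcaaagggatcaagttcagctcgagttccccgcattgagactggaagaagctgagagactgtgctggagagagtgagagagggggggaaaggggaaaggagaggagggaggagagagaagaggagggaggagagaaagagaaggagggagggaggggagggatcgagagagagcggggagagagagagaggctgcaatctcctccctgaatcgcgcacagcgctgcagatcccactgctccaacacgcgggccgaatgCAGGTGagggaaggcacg
Pcdh10 (chr3:45378148-45378447, plus strand): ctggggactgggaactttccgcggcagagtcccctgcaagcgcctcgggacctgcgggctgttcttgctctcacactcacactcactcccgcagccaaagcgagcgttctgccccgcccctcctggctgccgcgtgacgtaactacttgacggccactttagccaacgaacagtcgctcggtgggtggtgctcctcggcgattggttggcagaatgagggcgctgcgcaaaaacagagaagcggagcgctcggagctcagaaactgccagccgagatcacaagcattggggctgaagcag
Pcdh17 (chr14:84443313-84443612, plus strand): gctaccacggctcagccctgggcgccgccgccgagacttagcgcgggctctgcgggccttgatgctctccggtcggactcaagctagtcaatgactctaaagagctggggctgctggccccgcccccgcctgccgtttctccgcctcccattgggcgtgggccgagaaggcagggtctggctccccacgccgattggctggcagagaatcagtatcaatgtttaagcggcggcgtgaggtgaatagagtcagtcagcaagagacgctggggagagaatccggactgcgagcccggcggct

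The AP-1 letters TGANTCA, the site of injury-induced Fos and Jun proteins, were in none of the promoters of 22 members searched, which are those that the RefSeq table holds among 32 members on other chromosomes than the clusters, and 7.81% of all 32851 promoters held them. The CRE letters TGACGTCA, read by CREB and ATF proteins, were also in none, against 1.79% of all promoters. The E-box CAGGTG was in promoters of 3 of the 22 members, Cdh7, Pcdh7 and Pcdh15, and in 20.2% of all promoters. In Cdh7 it was present at each of the 3 starts. The first count is of members, which have 25 promoters in all, and the second is a share of promoters, so they are unlike units. No match says only that these letters are not in the window of 300 bases.

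Of the 3 clusters, alpha held the most genes past the test. At 24 HPI 7 of 12 tested Pcdha genes were past the test and all lower, against 1 of 20 in Pcdhb and 4 of 19 in Pcdhg, beside 15% of all tested genes past it and 9.03% lower. Every one of the 12 tested alpha genes was below its own control in 3 of 3 replicate numbers at 24 HPI. The share of all tested genes with this trait was not counted, and 49.7% had a log2 fold change below 0 at that time. Log2 fold changes of the alpha genes at 24 HPI had a median of −0.47 and a range from −1.17 to −0.28. The medians were −0.17 for Pcdhb and −0.29 for Pcdhg. The difference between the clusters was not tested. At 16 HPI 3, 1 and 2 genes of Pcdha, Pcdhb and Pcdhg were past the test, all lower, or 25%, 5% and 10.5% of those tested. Of all tested genes, 22.2% were past it in either direction and 11.5% were past it and lower.

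Pcdhac2 carried most of the alpha counts and was past the test from 8 HPI on. It had 131, 165 and 185 CPM in control, 124, 132 and 136 CPM at 8 HPI, 108, 129 and 116 CPM at 16 HPI and 96.9, 115 and 121 CPM at 24 HPI. All libraries at 16 and 24 HPI lay below the lowest control library. On the log2 scale Pcdhac2 changed by −0.29 ± 0.07 at 8 HPI, then by −0.44 ± 0.07 at 16 HPI, and by −0.53 ± 0.07 at 24 HPI (adjusted p = 6.1e-05). Its neighbour Pcdhac1, the other C-type alpha gene, had 11.7, 16.5 and 25.9 CPM in control and 6.20, 10.3 and 12.0 CPM at 24 HPI. The groups overlapped by the highest injured and the lowest control library, and the log2 fold change of Pcdhac1 was −0.91 ± 0.16 (adjusted p = 0.000641). At 16 HPI it was −0.59 ± 0.16, a call lost without control replicate 3 or 16 HPI replicate 3.

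Pcdha1, at the start of the cluster, was the only member past both the test and a 2-fold change, at 24 HPI, where 0.821% of all tested genes were past both and 0.182% were so and lower. Its level was low, with 8 to 61 counts per library, and it had 1.63, 2.29 and 2.95 CPM in control and 0.859, 1.08 and 1.10 CPM at 24 HPI. The groups did not overlap, and the log2 fold change was −1.17 ± 0.26 (adjusted p = 0.00391), a call lost without 24 HPI replicate 3. Pcdha1 was similarly low at 1 HPI, with 0.855, 1.10 and 1.24 CPM and no overlap with control, though not past the test. At 3 and 8 HPI its libraries overlapped with control, so the low values were not confined to late times. The other variable alpha genes past the test at 24 HPI were Pcdha5, Pcdha7, Pcdha11 and Pcdha12, with log2 fold changes of −0.60, −0.46, −0.47 and −0.69. Of these Pcdha5, Pcdha7 and Pcdha11 lost the call with DESeq2, and all 4 lost it without control replicate 3. The call was also lost without 24 HPI replicate 1 or 3 for Pcdha5, Pcdha7 and Pcdha11, without control replicate 2 for the same genes, and without control replicate 1 for Pcdha7 and Pcdha11. The 12 variable alpha genes together summed to 47.2, 56.0 and 62.1 CPM in control and to 33.4, 44.4 and 42.6 CPM at 24 HPI.

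**Figure D4:**
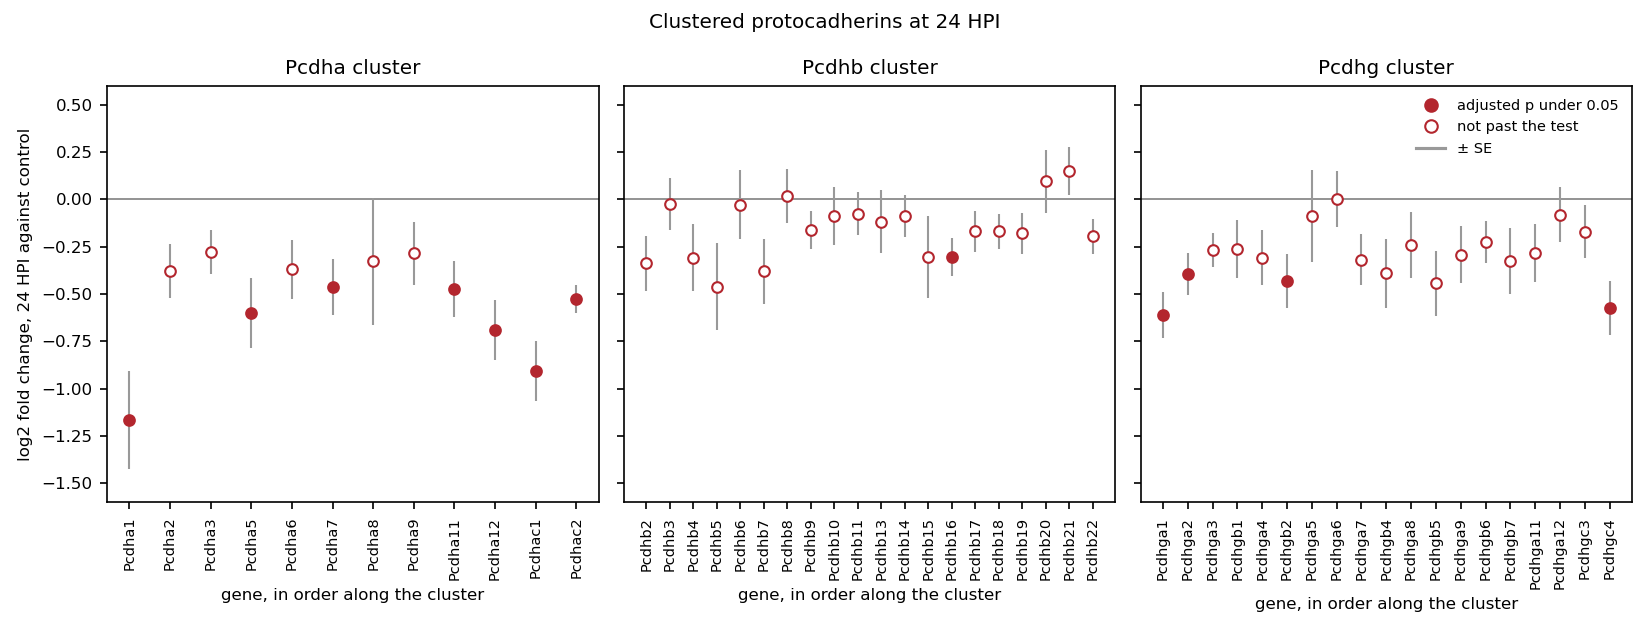
Log2 fold change at 24 HPI against control, with SE bars, of the tested clustered protocadherins in their order along each cluster. Filled points had an adjusted p under 0.05; all 12 alpha genes lie below 0, from −1.17 for Pcdha1 to −0.28, and 1 beta gene and 4 gamma genes are filled.

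Within the gamma cluster the genes past the test were spread from the first to the C-type end. Pcdhga1 had 5.30, 6.35 and 8.59 CPM in control, 3.92, 4.37 and 5.47 CPM at 16 HPI and 4.42, 3.79 and 5.08 CPM at 24 HPI. The 24 HPI libraries all lay under the control libraries, and the log2 fold change was −0.55 ± 0.12 at 16 HPI and −0.61 ± 0.12 at 24 HPI, calls kept whichever library was left out. Pcdhga2, its neighbour, was low early, with 7.44, 9.23 and 8.45 CPM in control and 5.57, 5.68 and 5.80 CPM at 3 HPI. The groups did not overlap and the log2 fold change was −0.55 ± 0.11 (adjusted p = 0.0494), followed by −0.44 ± 0.12 at 8 HPI and −0.39 ± 0.11 at 24 HPI. Each of these calls was lost without control replicate 2. Control replicate 3 was also needed at 3 and 8 HPI, as were 3 HPI replicates 2 and 3, 8 HPI replicates 1 and 3, and 24 HPI replicate 2 for the calls at their own times.

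Pcdhgc4, the C-type gene that is known to be needed for neuron survival, had 5.40, 6.58 and 6.13 CPM in control and 4.11, 4.26 and 3.76 CPM at 24 HPI. No 24 HPI library of Pcdhgc4 reached the control range, and the log2 fold change was −0.57 ± 0.14, after −0.41 ± 0.15 at 16 HPI. Both calls were lost without control replicate 2 or 3, and the earlier one also without any 16 HPI replicate. Pcdhgb2 was past the test at 24 HPI at −0.43 ± 0.14 and lost the call in 10 of 14 alternatives, among them those without each control replicate and without 24 HPI replicate 1 or 2. Pcdhgc3 had no call.

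The beta genes, which have single-exon variable regions and no constant exons, moved least by count. Pcdhb11 was past the test at 16 HPI, at −0.40 ± 0.12, and Pcdhb16 at 24 HPI, at −0.30 ± 0.10, and both calls were lost with DESeq2 and without control replicate 1 or 2. The call of Pcdhb11 was also lost without 16 HPI replicate 1, and that of Pcdhb16 without 24 HPI replicate 1 or 2. Pcdhb22 was past the F test over time and in the step from 8 to 16 HPI, where it went from 14.3, 11.3 and 11.2 CPM to 11.4, 7.83 and 8.93 CPM. Its control libraries held 13.1, 9.60 and 10.2 CPM, so the values at 8 HPI were above the control of the same replicate number, a difference not past the test. Pcdhb9, with the highest control level of the cluster at 3.88 ± 0.76 RPKM, was past no test.

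Summed over a cluster, the alpha genes had 190, 238 and 273 CPM in control and 137, 169 and 176 CPM at 24 HPI, which is 64.4% to 71.8% of the control of the same replicate number. The beta genes had 140, 134 and 117 CPM in control and 135, 108 and 111 CPM at 24 HPI, 80.7% to 96.6% of the control of the same replicate number. The gamma genes had 95.3, 106 and 111 CPM in control and 86.6, 80.3 and 85.8 CPM at 24 HPI, 75.4% to 90.9%. All 3 sums were lower at 24 HPI in 3 of 3 replicate numbers, and the alpha and gamma groups did not overlap with control while the beta groups did. In the alpha sum the replicates were in one order in control, replicate 1 lowest and replicate 3 highest, and in the beta sum in the opposite order.

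**Figure D5:**
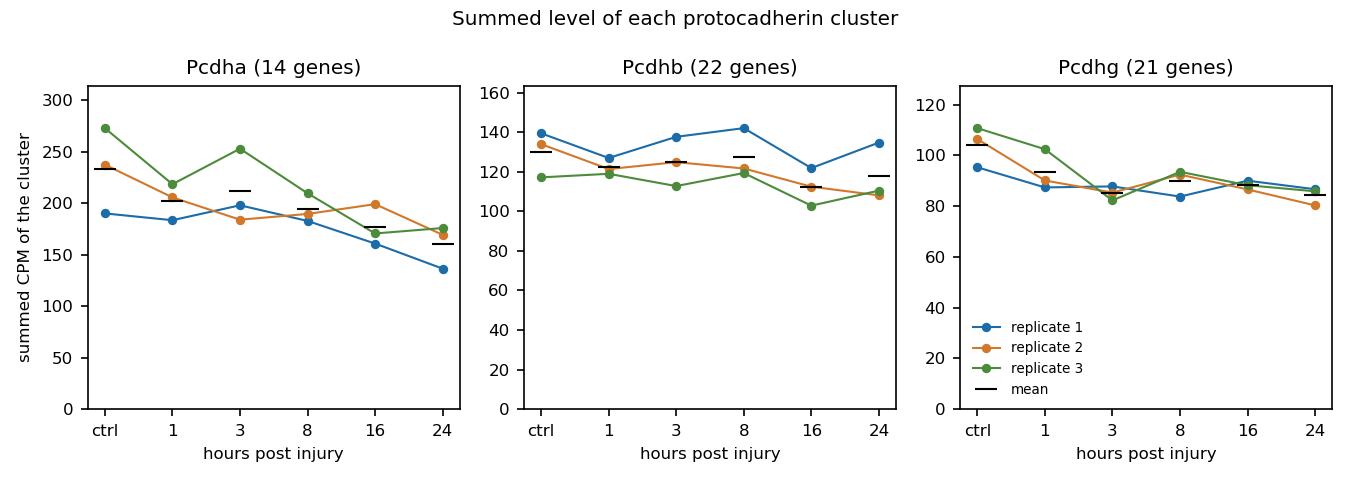
Summed CPM of the genes of each protocadherin cluster in every library, from control to 24 HPI, with linear axes that start at 0. Lines join libraries of the same replicate number and black bars are means of 3; the alpha sum falls from 190 to 273 CPM in control to 137 to 176 CPM at 24 HPI, and the beta sums of control and 24 HPI overlap.

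Genes that work with cadherins were counted against all tested genes, of which 22.2% were past the test at 16 HPI and 15% at 24 HPI, with 11.5% and 9.03% lower. Of 11 tested catenins and junction adaptors, 3 were lower at 16 HPI and 3 at 24 HPI, in each case Ctnna2, Jup and Afdn, and 0 were higher. Whether 3 of 11 differs from the shares of all tested genes was not tested. Ctnna2, the neuronal alpha-catenin that links cadherins to actin, stood at −0.26 ± 0.04 on the log2 scale at 16 HPI from 226 CPM in control. Jup, or plakoglobin, had −0.21 ± 0.05 at 24 HPI, and Afdn, the junction scaffold afadin, −0.23 ± 0.05. Ctnnb1, which encodes beta-catenin, had −0.08 at 16 HPI and −0.10 at 24 HPI and was not past the test. The median of the list was −0.07 at 16 HPI and −0.12 at 24 HPI.

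Among the other genes of the cadherin superfamily, 13 of 24 were tested. At 8, 16 and 24 HPI 5, 7 and 7 of them were lower, and 1 was higher at 16 HPI. Fat3, a giant cadherin known from neuron shape, had −0.68 ± 0.06 at 16 HPI and −0.39 ± 0.06 at 24 HPI. Celsr2, a seven-pass cadherin of planar polarity and axon guidance, had −0.54 ± 0.08 and −0.52 ± 0.08, and Clstn2, a calsyntenin of synapses, −0.42 ± 0.07 and −0.58 ± 0.07 at the same times. The higher gene was Dsc2, a desmosomal cadherin, at 1.12 ± 0.20 on the log2 scale at 16 HPI from 1.88 CPM in control. The list's median was −0.23 at both 16 and 24 HPI.

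Of 16 tested genes for promoter choice in the clusters, 3 were lower and 2 higher at 16 HPI, and 2 lower and 1 higher at 24 HPI. That made 5 and 3 in all, beside 22.2% and 15% of all tested genes, and a difference was not tested. Rest, the repressor of neuronal genes, was higher by 2.06 ± 0.26 on the log2 scale at 16 HPI from 0.879 CPM in control and of 0.25 at 24 HPI, which was not past the test. Dnmt3a, a DNA methyltransferase, had −0.42 ± 0.06 at 16 HPI and −0.30 ± 0.06 at 24 HPI. Ctcf and Rad21, a boundary factor and a cohesin subunit that loop the clusters, were past no test against control, with values at 24 HPI of 0.04 and 0.06. Stag2, another cohesin subunit, rose by 0.27 ± 0.06 at 24 HPI, and Wapl, which releases cohesin, had 0.16 ± 0.05 at 16 HPI.

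Of 15 tested signalling partners of protocadherins, 2 were lower and 2 higher at 16 HPI and 1 each way at 24 HPI. These counts stand beside the same shares of all tested genes, and a difference was not tested. Cyfip2, a subunit of the WAVE complex that some protocadherins bind, had −0.34 ± 0.05 at 24 HPI from 1110 CPM in control, and Fyn, a Src-family kinase, 0.25 ± 0.05 at 16 HPI. Of 11 tested proteases that cleave or mature cadherins, 1 was lower and 2 were higher at 16 HPI and 1 was lower at 24 HPI, beside the same 22.2% and 15% of all tested genes. Furin, which removes the cadherin prodomain, had 0.52 ± 0.10 at 16 HPI and −0.01 at 24 HPI, and Ncstn, a gamma-secretase subunit, had −0.25 ± 0.06 and −0.27 ± 0.06. Adam10, the sheddase of Cdh2, had −0.33 ± 0.13 at 16 HPI and was not past the test.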

How the data were processed

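RNA was extracted from 18 spot cultures, depleted of ribosomal RNA and made into SMARTer libraries. The deposited values are raw counts per gene, which the authors made by trimming with cutadapt, aligning to mm10 with STAR and counting, with no normalization. The paper's methods name featureCounts and the submitters' notes HTSeq. Whether strand was used is not given in the sources used here: of 126 genes with at least 500 exon bases unshared on their strand but none unshared on both strands, 112 were at 0 in all libraries, against 3079 of 20946 protein-coding genes with at least 500 bases unshared on both, the pattern of counting without strand. The closing 5 entries of each table, for reads on no gene, were left out of library sizes. Names and exons came from GENCODE vM21, which matched 47224 of 47643 identifiers.

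The 13771 genes that passed 1 CPM in 3 or more libraries were fitted in edgeR 4.0.16 (R 4.3.3) with TMM normalization, all 18 libraries, and terms for time point and replicate number, by the two-sided quasi-likelihood test. CPM used TMM library sizes. Groups came from the labels' titles. Replicate numbers were taken as pairing the libraries because deviations from the group means correlated between the 45 pairs of the same number (r from 0.484 to 0.765). Between the 90 pairs of different numbers r was negative, from −0.577 to −0.0423. Those values are not separate support for pairing, since the deviations within a group sum to 0. The labels do not say what a number shares. The fit was tested on simulated counts with known changes. These were of 2-fold or more and held no replicate effect, so that test does not cover the smaller changes reported here or the replicate term. Alternatives were DESeq2 1.42.0 and its size factors, other count filters, no replicate term, GC and length offsets, fits without residual rRNA and mitochondrial genes, fits of only 2 groups, and fits that omitted 1 library at a time. Genes named were members past a test, the 3 highest in each role, the 3 with the largest change at each time point, and up to 4 genes of each pathway list. A pair of cell type markers is not reported here and was left out of the marker sums. Members and lists were chosen with earlier results of these data known. Each SE came from the same fit and so covers the spread between libraries left after the replicate term, as well as counting error.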

Additional observations from a re-analysis of the deposited data

Results flagged for a closer look

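The following results stood out because 2 time points after injury differed from each other when compared directly, with edgeR and p-values adjusted by Benjamini-Hochberg. From 8 to 16 HPI the log2 fold change was −0.23 for Cdh2, −0.53 for Cdh7, −0.34 for Pcdh7, −0.25 for Pcdh17, −0.32 for Cdh8, −0.29 for Cdh18, −0.60 for Pcdh10, −0.32 for Pcdh9 and −0.39 for Pcdhb22, each lower in 3 of 3 replicate numbers. From 16 to 24 HPI it was −0.69 for Cdh10, also lower in 3 of 3 replicate numbers. None of these calls held without the replicate term. The causes were not tested.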

How the results depend on the processing

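Among the results and alternatives run, no called result changed direction. Without the replicate term, that is, with no replicate block, the counts of members past the test were 0, 0, 0, 5 and 0 at 1, 3, 8, 16 and 24 HPI, 1 over all time points, 0 from 8 to 16 HPI, 0 from 16 to 24 HPI, and 0 past 2-fold at 24 HPI. Of 45 calls of a member at a time point, 40 were lost without it, and 5 were kept in every alternative: Cdh2, Cdh4, Cdh8, Cdh18 and Pcdh7 at 16 HPI. With the 2 compared groups alone there were 4 members at 1 HPI (1 past 2-fold), 0 at 3 HPI, 2 at 8 HPI and 2 from 16 to 24 HPI. DESeq2 gave 2 at 1 HPI and 1 at 3 HPI. GC and length offsets gave 1 at 3 HPI and 14 from 8 to 16 HPI. A filter of 10 counts gave 1 past 2-fold at 8 HPI, and one of 1 CPM in all 18 libraries gave 0 past 2-fold at 24 HPI.

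Leaving out 1 library gave 0 to 1 members at 1 HPI, 0 to 2 at 3 HPI, 0 to 6 at 8 HPI, 13 to 18 at 16 HPI, 14 to 20 at 24 HPI, 6 to 10 from 8 to 16 HPI, 0 to 4 from 16 to 24 HPI and 19 to 24 over all time points, and past 2-fold 0 to 1 at 16 HPI and 0 to 2 at 24 HPI. The count was 0 at 1 HPI without control replicate 2 or 3 or 1 HPI replicate 1 or 2, 0 at 3 HPI without control replicate 2 or 3 or 3 HPI replicate 2 or 3, and at 8 HPI 0 without control replicate 2 and 1 without control replicate 3 or any 8 HPI replicate. At 24 HPI it was 14 without control replicate 2. From 16 to 24 HPI it was 4 when 24 HPI replicate 2 was left out, 2 when 16 HPI replicate 3 was, and 0 with either of 16 HPI replicates 1 and 2, or of 24 HPI replicates 1 and 3, left out. Past 2-fold there was 1 member at 16 HPI without 16 HPI replicate 2; at 24 HPI omitting replicate 2 of that group gave 2, and omitting replicate 3 gave 0. Except where fewer samples or genes were tested by construction, the cause was not tested. Of 140 median log2 fold changes recomputed, 12 moved by more than the spread between replicates and 0 changed sign. Low counts limit the 16 members below the filter, for which no change could be shown. In Pcdhga10 and Pcdha4 exon bases shared with other genes, and not only depth, can limit the counts.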
